A study of Mus musculus with 15 samples.

Results

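Hearts of mice given isoproterenol for 8 days were compared with hearts of mice given it for 4 days, 7 hearts of the 15 in the series. Isoproterenol is a synthetic catecholamine that stimulates β-adrenergic receptors and so makes the heart beat faster and harder, and repeated dosing is a common way to make the mouse heart grow and scar. The 8-day group held 3 hearts (A, B and C) and the 4-day group held 4 hearts (A, B, C and D). All were from male C57BL6 mice aged 12 weeks that received 50 mg/kg/day under the skin. By the labels and methods, the groups differed by the length of dosing and by the few days of age that go with it. The time of day at which the hearts were collected is not given. No allele or transgene was involved. The 4 hearts of saline-treated mice and the 4 hearts of mice dosed for 11 days are given beside the comparison as description only. The study's methods state that saline was given for a similar period, without a day for each heart, and that one more 8-day replicate was set aside for its quality. Total RNA of heart tissue, from the ventricles by the study's methods, went into each library.

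Fibrosis of the heart is the build-up of extracellular matrix between muscle cells. Fibroblasts that become activated after injury secrete collagens, fibronectin and periostin, lay down a provisional matrix with tenascin C, osteopontin and versican, and cross-link the new fibers with lysyl oxidases. Metalloproteinases and their tissue inhibitors set how long that matrix stays, and macrophages clear dead cells and debris at the same sites. The comparison asks how these and other programs stood after the longer dosing relative to the shorter one.

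Total expected counts were 46.6M, 25.4M and 28.4M in 8-day hearts A, B and C, and 99.3M, 38.1M, 90.8M and 27.9M in 4-day hearts A to D, out of a range of 25.4M to 117.8M over the series. Mitochondrial genes held 47.5% (4-day A) to 55.9% (8-day B) of these counts in the 7 hearts. The mitochondrial rRNAs alone held 39.7% to 46.9% in the same hearts, so the depth left for nuclear genes was much lower than these totals. CT010467.1 and Lars2 together held 15.8% of all counts in 8-day A and no more than 0.0917% in any other library, and its TMM factor, the scaling that corrects for such shares, was 0.704. Cardiac muscle was present in every library, where the 20 cardiomyocyte markers, all detected, summed to 78860 to 84200 CPM (the counts of a gene scaled by the library's TMM-adjusted size) at 8 days and 74040 to 84300 CPM at 4 days. 8-day A also had the lowest mean Pearson correlation with its own group among the 7 hearts, 0.966 on log2 CPM over 13368 genes, against 0.960 with the 4-day hearts. On the same measure, 8-day C had 0.972 with the other 8-day hearts and 0.981 with the 4-day hearts, closer to the other group than to its own. 4-day B had 0.977 with the 8-day hearts and 0.978 with the other 4-day hearts. Results are also given without 4-day B, without 8-day A and, where a count changed, without each other library.

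In edgeR's quasi-likelihood test, with adjustment over all 26862 genes, 66 genes (0.246%) differed between 8-day and 4-day hearts. Of these, 19 were higher (0.0707% of the genes tested) and 47 lower (0.175%) at 8 days, and in all 66 every 8-day heart lay on one side of every 4-day heart, which over all genes held for 1261 on the higher side (4.69%) and 1592 on the lower side (5.93%). The lower genes moved further. Among them 34 fell at least 2-fold, while 4 of the higher genes rose at least 2-fold. The smallest adjusted p was 0.0159, and at an unadjusted p under 0.05 there were 1171 higher (4.36%) and 1925 lower genes (7.17%). Of all 26862 genes, 14052 had a negative and 12783 a positive fold change. Protein-coding genes made up 64 of the 66, beside the lincRNA Gm48422 and the unprocessed pseudogene Gm18853. With library size as the sole scaling the split became 22 higher and 513 lower, and the median over all genes shifted to -0.32 on the log2 scale, against -0.02 with TMM.

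**Figure D1:**
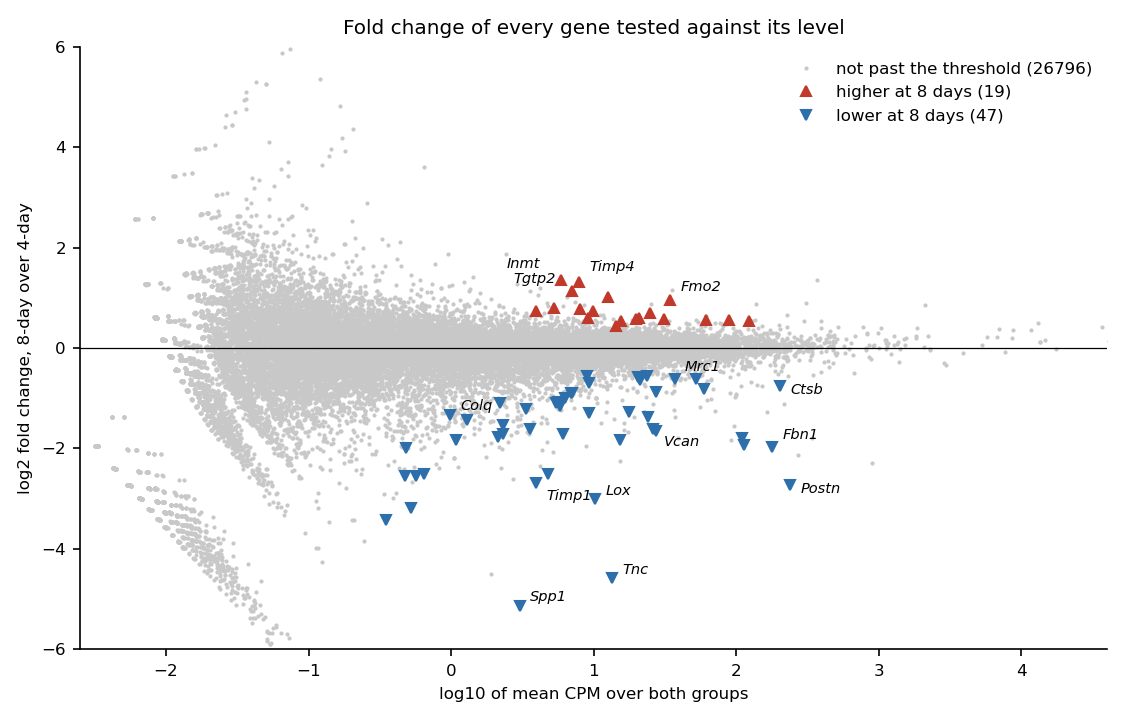
Each point is a gene, with log10 of its mean CPM over both groups on the horizontal axis and the log2 fold change of 8-day over 4-day hearts on the vertical axis, and triangles mark the 19 genes past the threshold that were higher and the 47 that were lower at 8 days. The lower genes reach -5.13 (Spp1) while no higher gene passes 1.35 (Inmt), and 68 genes lie outside the axes.

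The number of genes past the threshold depended on single libraries. It was 696 (124 higher, 0.462%, and 572 lower, 2.13%) without 4-day B and 14 without 8-day A, and all 66 genes kept their call without 4-day B but 8 did without 8-day A: Timp4, Tgtp2, Vcan, Sult1a1, Iigp1, Fuca2, Gbp4 and Gm18853. Without both 4-day B and 8-day A it was 415, again with all 66. Leaving out 8-day B left 1 gene, and leaving out 4-day D left 0 in edgeR, with 864 higher and 1719 lower genes at an unadjusted p under 0.05. Leaving out 8-day C, 4-day A or 4-day C gave 69, 37 and 64 genes, of which 28, 34 and 43 were among the 66. In each of these fits all 66 genes kept their direction. For the genes below, "without 4-day B" and "without 8-day A" therefore refer to the adjusted p of the same test on the remaining 6 hearts.

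**Figure D2:**
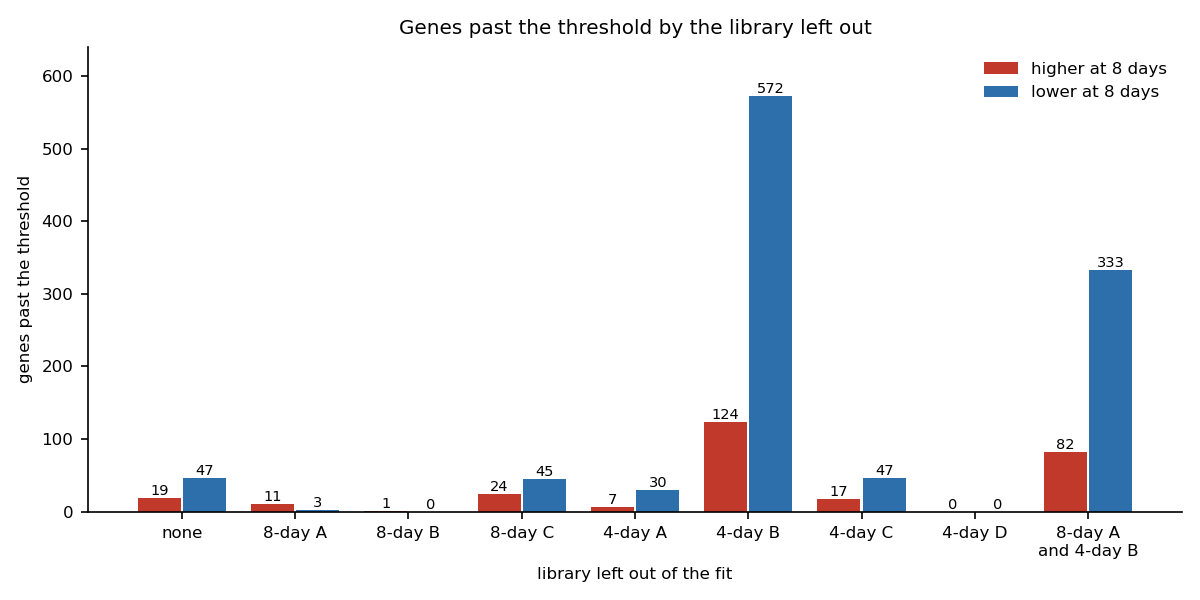
Bars give the number of genes past an adjusted p of 0.05 on the vertical axis, higher and lower at 8 days, for the fit of all 7 hearts and for fits with the named library left out. Leaving out 4-day B gave 124 higher and 572 lower genes, and leaving out 4-day D gave 0 in both directions.

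Several matrix glycoproteins that mark injured and scarring tissue were lower at 8 days, and 2 of them, Spp1 and Tnc, had the lowest fold changes of the 66 called genes. Tnc, which encodes tenascin C, a matricellular protein that adult tissue makes mainly at sites of repair, lies at chr4:63959785-64047015 (GRCm38). It had 0.610, 0.339 and 2.17 CPM in 8-day hearts A, B and C, against 46.2, 7.81, 16.7 and 32.4 CPM in 4-day hearts A to D. The lowest 4-day heart was B and the highest 8-day heart was C, and they still did not overlap. The log2 fold change was -4.58 (SE 0.63, adjusted p = 0.0219), with an adjusted p of 0.00018 without 4-day B and 0.133 without 8-day A. Saline hearts averaged 0.617 CPM and 11-day hearts 0.740 CPM.

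Spp1 encodes osteopontin, a secreted phosphoprotein made by macrophages and activated fibroblasts, at chr5:104435118-104441050. It had 0.183, 0.0423 and 0.255 CPM at 8 days, against 9.64, 1.26, 7.89 and 4.71 CPM at 4 days. These levels rest on 6, 1 and 8 counts at 8 days and on 1108, 49, 849 and 144 counts at 4 days. Its log2 fold change of -5.13 (SE 0.73, adjusted p = 0.0219) rested on few reads at 8 days. The adjusted p was 3.12e-05 without 4-day B and 0.134 without 8-day A.

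Postn encodes periostin, the usual marker of activated cardiac fibroblasts, at chr3:54361109-54391037. It had 48.0, 30.2 and 108.9 CPM in the 8-day hearts and 634, 129.8, 420.2 and 476.2 CPM in the 4-day hearts. Here 8-day C came within a small margin of 4-day B, and every other pair was far apart. The fold change was -2.73 (SE 0.48, adjusted p = 0.0456), and the adjusted p was 0.000801 without 4-day B and 0.192 without 8-day A. Fn1, the gene of fibronectin, had 44.7, 36.0 and 60.3 CPM at 8 days, against 260.6, 60.4, 198.5 and 199.7 CPM at 4 days, so that 8-day C and 4-day B nearly met. Its fold change of -1.94 (SE 0.36) had an adjusted p of 0.0496.

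Genes of the fibrillin microfibrils, on which elastic fibers are built and latent TGF-β is stored, were lower as well. Fbn1, the gene of fibrillin-1 at chr2:125300594-125507993, had 65.8, 58.9 and 92.5 CPM at 8 days, against 406.9, 137.4, 325.9 and 263.2 CPM at 4 days (log2 fold change -1.97, SE 0.28, adjusted p = 0.0238). Its partner Mfap5 had 7.20, 3.30 and 9.57 CPM, against 31.4, 12.5, 26.8 and 25.5 CPM (-1.83, SE 0.32, adjusted p = 0.0456). Thbs1, the gene of thrombospondin 1, an activator of latent TGF-β, had 2.75, 2.24 and 3.57 CPM, against 12.1, 5.01, 9.70 and 10.5 CPM (-1.71, SE 0.26, adjusted p = 0.0259). None of the 3 had overlapping groups, and each was lowest at 4 days in heart B. Of the 40 matricellular and adhesive glycoproteins measured, these 7 fell and 0 rose past the threshold, with a median log2 fold change of -0.57, against -0.02 for all genes tested. In total 24 of the 40 were lower at an unadjusted p under 0.05 (7.17% of all genes) and 34 had a negative fold change. Without 4-day B 21 fell (2.13% of all genes), and without 8-day A 0. Cthrc1, a secreted protein of activated fibroblasts, had one of the lowest fold changes of the list at -4.51 (SE 0.91) but overlapped between the groups and missed the threshold (adjusted p = 0.0678).

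**Figure D3:**
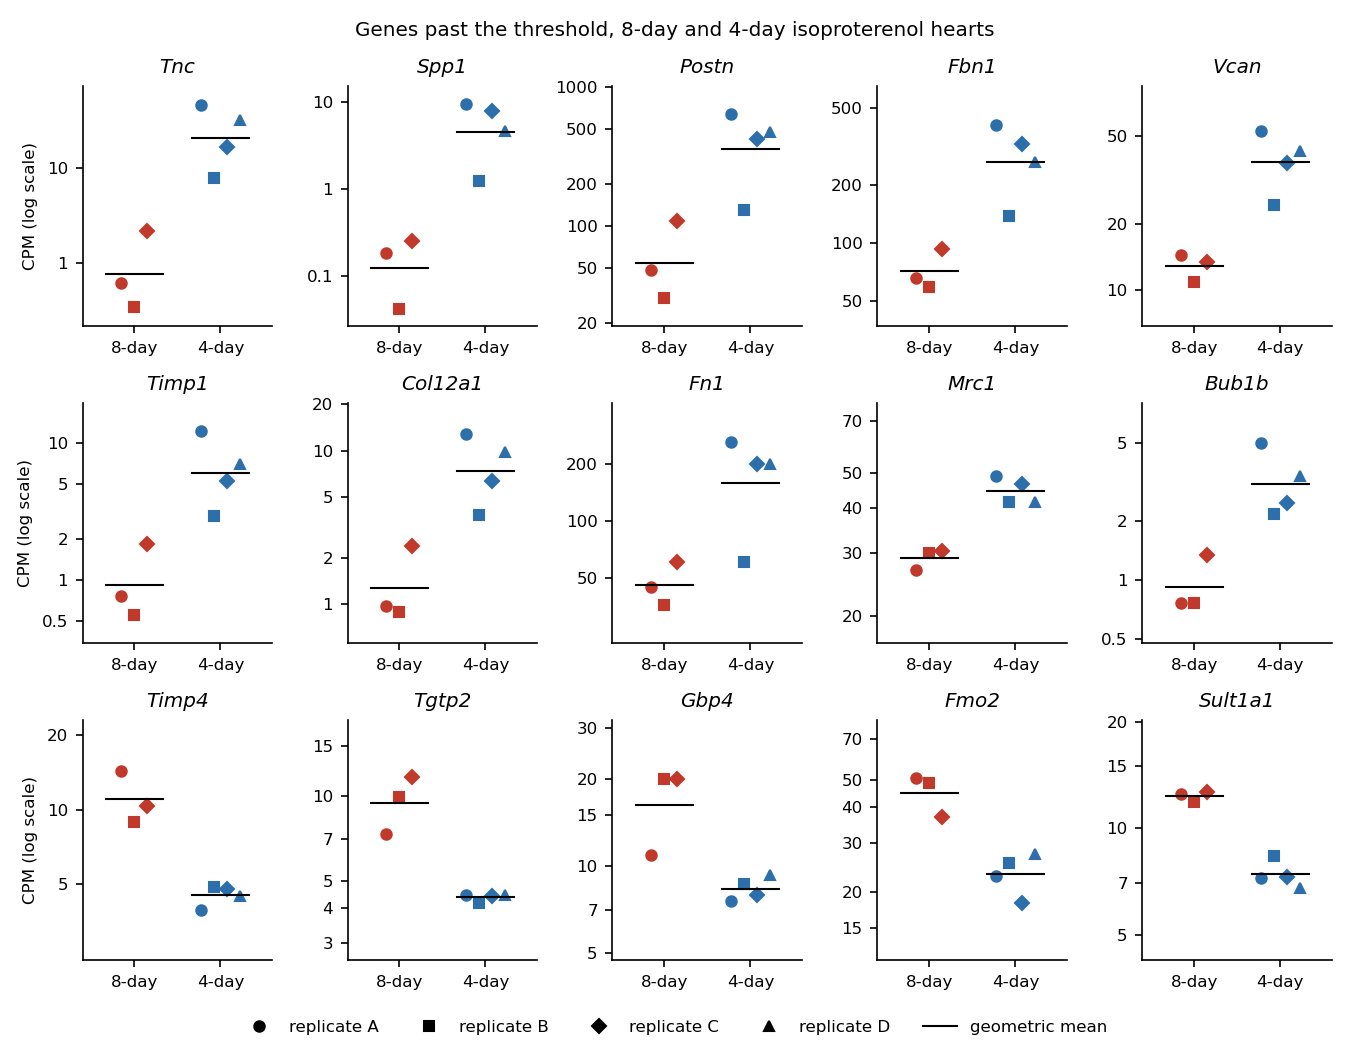
CPM on log axes (vertical) in the 8-day and 4-day hearts for 15 genes past the threshold, with 1 point for each heart, shaped by replicate letter, and a line at the geometric mean. Tnc ran from 0.339 to 2.17 CPM at 8 days and from 7.81 to 46.2 CPM at 4 days, 4-day B was the lowest 4-day heart in most of the upper 10 panels, and the 5 genes in the bottom row were higher in every 8-day heart than in every 4-day heart.

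Among proteoglycans and hyaluronan genes, 2 of 19 fell and 0 rose. Vcan, the gene of versican, a large chondroitin sulfate proteoglycan of the provisional matrix at chr13:89655312-89742509, had 14.4, 10.9 and 13.3 CPM at 8 days, against 53.1, 24.5, 37.8 and 42.7 CPM at 4 days. The 8-day hearts were tightly grouped, and the 4-day hearts were all well above them. Its fold change of -1.62 (SE 0.21, adjusted p = 0.0219) kept an adjusted p of 0.000047 without 4-day B and 0.0437 without 8-day A. Has2, which encodes a hyaluronan synthase, was a gene of low level at 0.153, 0.254 and 0.191 CPM, against 0.861, 0.514, 1.003 and 0.655 CPM (-1.999, SE 0.36, adjusted p = 0.0456), on 5 to 6 counts in each 8-day heart. Outside the list, Ugdh, which makes the sugar nucleotide that hyaluronan is built from, had a fold change of -0.90 (SE 0.17, adjusted p = 0.0496), and Hpse, the gene of heparanase, which cuts heparan sulfate, had -2.52 (SE 0.45, adjusted p = 0.0456). Aspn and Bgn, small leucine-rich proteoglycans, had non-overlapping groups at 24.3, 13.9 and 23.5 CPM against 73.2, 27.7, 52.0 and 61.8 CPM for Aspn, but adjusted p values of 0.059 and 0.0807.

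Of the 22 collagen chain genes measured, 1 fell and 0 rose. Their fold changes ran from -2.51 to 0.20, with a median of -1.13, and 21 were negative. In 4 chains every 8-day heart lay below every 4-day heart (5.93% of all genes). At an unadjusted p under 0.05, 18 were lower (7.17% of all genes). The chain that fell was Col12a1, which encodes a collagen that decorates fibrils, with 0.976, 0.889 and 2.39 CPM at 8 days, against 12.8, 3.83, 6.33 and 9.78 CPM at 4 days (-2.51, SE 0.41, adjusted p = 0.0378). The main fibril-forming chains overlapped between the groups. Col3a1 had 175, 207 and 524.2 CPM in 8-day hearts A, B and C, against 2351, 510.3, 1699 and 1393 CPM in 4-day hearts A to D (-2.30, SE 0.46, adjusted p = 0.0598). Col1a1 had 52.1, 71.4 and 175.5 CPM, against 694.7, 137.2, 487.4 and 431.7 CPM (-2.14, SE 0.47, adjusted p = 0.0724). In both genes 8-day C lay above 4-day B and all other 8-day hearts lay below all 4-day hearts. Without 4-day B, 15 of the 22 chains fell, with adjusted p of 0.00165 for Col3a1 and 0.00265 for Col1a1, and without both 4-day B and 8-day A 13 fell. Without 8-day A alone 0 fell, with adjusted p of 0.233 for Col3a1 and 0.277 for Col1a1. By DESeq2 on all 7 hearts 7 chains fell.

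Enzymes that process and cross-link collagen had 2 of 24 genes lower and 0 higher (median -0.41). Lox, the gene of lysyl oxidase, had 2.196, 1.86 and 2.74 CPM at 8 days, against 32.4, 3.93, 14.5 and 21.9 CPM at 4 days (-3.00, SE 0.53, adjusted p = 0.0456). Its 4-day range was wide, with heart B near the 8-day hearts and heart A far above them. Loxl2, a related oxidase, had 12.9, 8.63 and 18.0 CPM, against 61.7, 22.1, 42.1 and 40.2 CPM (-1.65, SE 0.29, adjusted p = 0.0456). Serpinh1, the collagen chaperone HSP47, had 47.1, 42.1 and 49.9 CPM, against 99.4, 57.8, 70.5 and 74.5 CPM, but an adjusted p of 0.0678.

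The 2 tissue inhibitors of metalloproteinases that passed moved in opposite directions, the sole calls among 29 metalloproteinases and inhibitors. Timp1, the inhibitor that injured tissue induces, had 0.762, 0.550 and 1.82 CPM at 8 days, against 12.2, 2.90, 5.25 and 6.97 CPM at 4 days (-2.69, SE 0.47, adjusted p = 0.0456). Timp4, the inhibitor typical of the heart, at chr6:115241892-115252205, had 14.4, 8.93 and 10.4 CPM at 8 days, against 3.94, 4.88, 4.77 and 4.48 CPM at 4 days. The 4-day hearts were within a narrow band and every 8-day heart was well above it. The fold change of 1.32 (SE 0.15, adjusted p = 0.0159) had the smallest p of all genes, and it kept its call without 4-day B (adjusted p = 0.000801) and without 8-day A (0.00756). Saline hearts averaged 16.1 CPM. Among the proteases themselves, Adam12 and Mmp12 had fold changes of -2.39 and -1.26 with adjusted p of 0.0711 and 0.0792.

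The markers of activated fibroblasts, a list that shares many of these genes, had 6 of 20 lower and 0 higher, all 20 with a negative fold change (median -1.67). Their summed level was 236.8 to 411.2 CPM at 8 days and 476.5 to 1596 CPM at 4 days. The 18 general fibroblast markers summed to 1452 to 2184 CPM at 8 days and 1949 to 5094 CPM at 4 days, and 1 of them, Mfap5, passed the test (median -0.51). Without 4-day B, 16 activated and 8 general fibroblast markers fell, and without 8-day A 0 of either list did. In bulk tissue, fewer cells of a type and less RNA per cell cannot be told apart. Smaller fibroblast and vessel-wall genes among the calls were Cd248, the gene of endosialin, a surface protein of fibroblasts and pericytes, at 5.09, 4.91 and 6.25 CPM, against 15.4, 7.83, 17.7 and 11.5 CPM (-1.29, SE 0.23, adjusted p = 0.0456), and Ptgis, which encodes prostacyclin synthase, at 3.32, 3.89 and 3.76 CPM, against 8.64, 6.19, 8.72 and 6.77 CPM (-1.07, SE 0.15, adjusted p = 0.0219). Sfrp1, a secreted Wnt antagonist (-0.90), Aldh1a2, which makes retinoic acid (-1.61), Fndc1 (-1.38), Igsf10 (-1.09), Dclk1 (-1.21) and Pmp22 (-0.57) were also past the threshold, with adjusted p between 0.0456 and 0.0496.

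In the TGF-β pathway, which drives fibroblasts toward matrix production, 1 of 30 genes fell and 0 rose (median -0.08). The gene was Fstl1, a secreted follistatin-like glycoprotein of stromal cells, at 45.7, 39.5 and 61.8 CPM in 8-day hearts, against 241.5, 84.2, 177 and 173.9 CPM in 4-day hearts (-1.79, SE 0.27, adjusted p = 0.0259). The groups were apart by a clear margin even between 8-day C and 4-day B. The ligand genes Tgfb2 and Tgfb3 had fold changes of -0.50 and -0.60 with adjusted p of 0.151 and 0.258, and the receptor gene Tgfbr2 had -0.13 with 0.678.

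Macrophage genes were lower in level at 8 days. Mrc1, the gene of the mannose receptor CD206 of resident macrophages, at chr2:14229392-14332057, had 26.8, 30.0 and 30.3 CPM at 8 days, against 49.1, 41.6, 46.7 and 41.5 CPM at 4 days (-0.63, SE 0.09, adjusted p = 0.0259). It was the sole called member of the 34 macrophage and monocyte markers, of which 30 had a negative fold change (median -0.66). At an unadjusted p under 0.05, 24 of the 34 were lower (7.17% of all genes). Cd68, a lysosomal macrophage marker, had 3.36, 2.16 and 2.17 CPM, against 9.49, 3.85, 8.06 and 5.56 CPM, without overlap but with an adjusted p of 0.059. The list summed to 248.5 to 325.7 CPM at 8 days and 342.8 to 554.1 CPM at 4 days, and 18 members fell without 4-day B, 0 without 8-day A and 12 by DESeq2 on all 7 hearts. Ccl8, a chemokine that draws monocytes, had 0.153, 0.127 and 0.0319 CPM, against 1.47, 1.05, 0.613 and 0.622 CPM (-3.20, SE 0.52, adjusted p = 0.0378), on 1 to 5 counts in each 8-day heart. It was the sole call among 41 chemokines and cytokines. Plek (pleckstrin, of leukocytes and platelets, -0.996), Dab2, an adaptor of receptor uptake (-0.55), and the cathepsin gene Ctsb, a lysosomal protease with 152.6, 139.9 and 159.9 CPM at 8 days and 297.9, 193.8, 270.4 and 254.5 CPM at 4 days (-0.75, SE 0.13), each had an adjusted p of 0.0456. Fuca2, the gene of a fucosidase, had 53.3, 35.2 and 38.8 CPM, against 78.9, 76.8, 74.9 and 70.5 CPM (-0.83, SE 0.12), and it was one of the few genes that kept their call without 8-day A, with an adjusted p of 0.00128. Lilr4b (-1.16, adjusted p = 0.04996) is a near copy of Lilrb4a (-0.84, adjusted p = 0.0678), and reads may have been split between them.

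**Figure D4:**
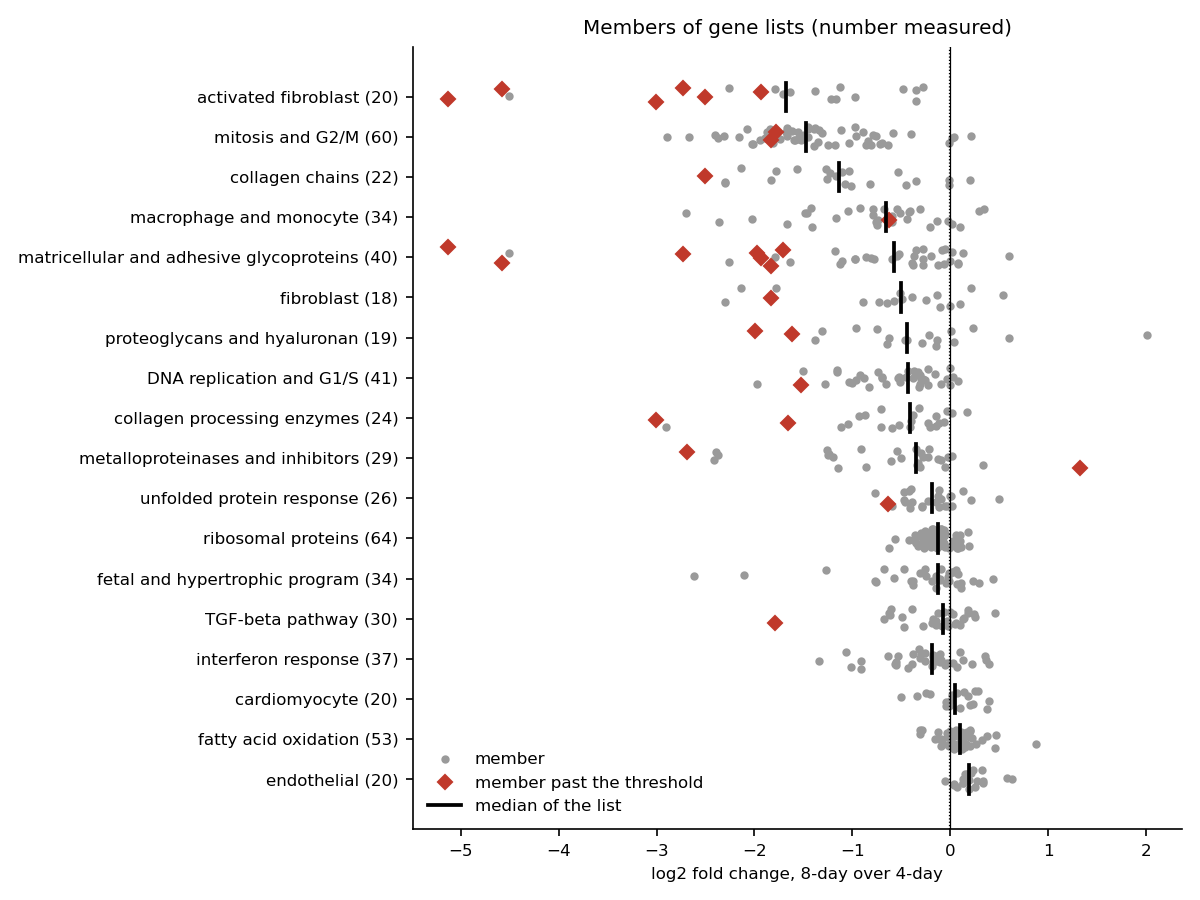
Log2 fold change of 8-day over 4-day hearts (horizontal) for the members of 18 gene lists (rows, with the number measured), with diamonds for members past the threshold and a bar at each median. The medians of the activated fibroblast, mitosis and collagen lists are -1.67, -1.48 and -1.13, while those of the cardiomyocyte, fatty acid oxidation and endothelial lists are 0.05, 0.10 and 0.19 and turn negative under library size scaling.

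Genes of cell division were lower in level at 8 days. Of 60 genes of mitosis and G2/M, 57 had a negative fold change (14052 of all 26862 genes), with a median of -1.48. In 40 of them every 8-day heart lay below every 4-day heart (5.93% of all genes), and 54 were lower at an unadjusted p under 0.05 (7.17%). Past the threshold were Espl1, the gene of separase, which cuts the ring that holds sister chromatids together, and Bub1b, a kinase of the spindle checkpoint. Espl1 had 0.518, 0.381 and 0.542 CPM at 8 days, against 2.48, 1.18, 1.62 and 1.51 CPM at 4 days (-1.83, SE 0.30, adjusted p = 0.0378), and Bub1b had 0.762, 0.762 and 1.34 CPM, against 5.03, 2.18, 2.47 and 3.40 CPM (-1.78, SE 0.32, adjusted p = 0.0456). Both genes were at low levels, on 9 to 42 counts in each 8-day heart. Mki67, the proliferation marker Ki-67, had 7.69, 5.75 and 11.6 CPM at 8 days, against 46.4, 14.4, 19.6 and 25.5 CPM at 4 days (-1.67, SE 0.34, adjusted p = 0.0678), and Top2a, a topoisomerase that untangles chromosomes, had 3.05, 2.54 and 5.26 CPM, against 25.3, 7.88, 8.52 and 14.1 CPM (-1.94, SE 0.38, adjusted p = 0.0598). The list summed to 113.9 to 148.8 CPM at 8 days and 177.6 to 347.9 CPM at 4 days, and the highest 4-day heart was A. Without 4-day B, 38 members fell, without both 4-day B and 8-day A 15, without 8-day A 0, and by DESeq2 on all 7 hearts 28.

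DNA replication and G1/S had 1 of 41 genes lower and 0 higher (median -0.43). It was Uhrf1, which guides the copying of DNA methylation after replication, at 1.22, 0.931 and 1.44 CPM, against 5.18, 2.44, 2.67 and 3.50 CPM (-1.53, SE 0.28, adjusted p = 0.0456). E2f1, a transcription factor of S-phase entry, had 0.549, 0.550 and 0.734 CPM, against 1.74, 1.104, 1.36 and 1.18 CPM, without overlap but with an adjusted p of 0.0678. The summed level was 122.2 to 136.4 CPM at 8 days and 152.5 to 211.9 CPM at 4 days. The list of cell cycle brakes and cyclin D had 0 of 20 called in edgeR and 0 by DESeq2, and its median was 0.00. At an unadjusted p under 0.05 it had 3 higher and 4 lower genes (4.36% and 7.17% of all genes). The tubulin genes Tuba1c (-0.69) and Tubb3 (-2.55, on 3 to 6 counts in each 8-day heart) also passed, and as members of a family of similar genes they may have shared reads with others.

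The promoters of the called mitotic genes are shown because genes of the G2/M program are known to share a CCAAT box and a cell cycle homology element. The 250 bases before each start site in RefSeq (GRCm38.p6) were searched on both strands for CCAAT and for TTTGAA, a common form of that element, and the last 150 bases are printed 5′ to 3′ with matches in capitals. The first is chr15:102296143-102296292 on the plus strand and the other chr2:118598061-118598210 on the plus strand.
Espl1: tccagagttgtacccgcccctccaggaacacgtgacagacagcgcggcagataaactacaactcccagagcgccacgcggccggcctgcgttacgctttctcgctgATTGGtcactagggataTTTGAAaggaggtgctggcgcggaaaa
Bub1b: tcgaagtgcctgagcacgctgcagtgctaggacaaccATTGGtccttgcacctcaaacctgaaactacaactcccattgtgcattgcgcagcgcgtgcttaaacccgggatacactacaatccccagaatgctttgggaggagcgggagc

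In Espl1 the CCAAT box, read on the opposite strand, began 44 bases and TTTGAA 27 bases before the start site, and in Bub1b a CCAAT box began 113 bases before it. Of 53 promoters of 50 mitosis genes that could be matched, 71.7% held CCAAT, 39.6% TTTGAA and 34% both, against 33.8, 16 and 5.55% of all 32851 promoters. A match of letters is a description and not evidence of binding.

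Early response and stress genes gave few calls. Egr3, an immediate early transcription factor, had 0.153, 0.0423 and 0.287 CPM at 8 days, against 1.03, 0.693, 1.34 and 0.851 CPM at 4 days (-2.56, SE 0.42, adjusted p = 0.0378), the sole call among 25 immediate early genes. Fos, another gene of the list, had non-overlapping groups as well, with a fold change of -1.33 and an adjusted p of 0.148. Serpina3n, an acute phase serine protease inhibitor, had 9.91, 8.76 and 12.7 CPM, against 35.6, 18.7, 17.2 and 29.2 CPM (-1.27, SE 0.23, adjusted p = 0.0456), 1 of 27 genes of complement and acute phase. Its 8-day hearts stayed above the saline hearts, which had 1.71 to 3.08 CPM.

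In the unfolded protein response, which raises the folding capacity of the endoplasmic reticulum, 1 of 26 genes fell and 0 rose (median -0.19). Pdia6, a disulfide isomerase, had 14.9, 18.0 and 16.8 CPM, against 29.8, 24.7, 22.8 and 25.5 CPM (-0.64, SE 0.11, adjusted p = 0.0456). Calr, the gene of the chaperone calreticulin, had 48.1, 47.6 and 47.1 CPM, against 72.0, 66.4, 56.6 and 69.4 CPM, with an adjusted p of 0.0598. In both genes the saline mean lay above both groups. The stress gene Herpud1 went the other way, with a fold change of 0.50 (adjusted p = 0.0981).

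The 64 ribosomal protein genes differed by little. None passed in edgeR and 4 fell by DESeq2. At an unadjusted p under 0.05, 19 were lower and 0 higher (7.17% and 4.36% of all genes), and 21 had every 8-day heart below every 4-day heart (5.93%). Their median was -0.13, and their summed level was 3175 to 3312 CPM at 8 days and 3479 to 3877 CPM at 4 days, without overlap. Rpl22l1, a paralog of a large-subunit protein, had the smallest p, at 3.84, 4.95 and 4.47 CPM against 7.41, 6.93, 5.72 and 7.17 CPM (-0.63, SE 0.13, adjusted p = 0.0678). Ribosomal protein genes have many processed pseudogenes that can take their reads.

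Muscle and metabolic lists gave no call in edgeR. Over all genes, 4.36% were higher and 7.17% lower at an unadjusted p under 0.05. Of 20 cardiomyocyte markers 0 passed in edgeR, with 4 higher and 3 lower at that unadjusted p and 1 higher and 1 lower by DESeq2. Their median was 0.05, or -0.24 under library size scaling (-0.32 for all genes). Among them Myl2, the regulatory light chain of the ventricle, had 2240, 2120 and 1908 CPM at 8 days, against 1478, 1830, 1439 and 1586 CPM at 4 days (0.40, SE 0.12, adjusted p = 0.174). In the fetal and hypertrophic program 0 of 34 genes passed, with 11 lower at an unadjusted p under 0.05, 2 lower by DESeq2 and a median of -0.13. Acta1, skeletal actin, which stressed heart muscle expresses again, had 105.3, 71.8 and 116.7 CPM, against 172.8, 167.3, 128.5 and 155.9 CPM (-0.67, SE 0.15, adjusted p = 0.0741), a fold change without overlap. Nppa, the gene of atrial natriuretic peptide, had 63.7, 30.6 and 196.4 CPM, against 349, 86.0, 276.2 and 224.4 CPM, with 8-day C above 4-day B (-1.27, SE 0.52, adjusted p = 0.355), and Myh7, the slow myosin heavy chain, had 131.4, 104.8 and 289.9 CPM, against 251.2, 72.0, 132.7 and 61.8 CPM (0.44, SE 0.42, adjusted p = 0.771).

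Among 53 genes of fatty acid oxidation, the main fuel pathway of the heart, 0 passed in edgeR and 0 by DESeq2. At an unadjusted p under 0.05, 4 were higher and 2 lower (4.36% and 7.17% of all genes). Their median was 0.10, or -0.20 under library size scaling (-0.32 for all genes). Their summed level was 6577 to 7459 CPM at 8 days and 5902 to 7623 CPM at 4 days, with 4-day B the highest of the 7 hearts. The 73 genes of the nuclear respiratory chain had 0 calls, 6 higher and 1 lower at an unadjusted p under 0.05 and 2 higher by DESeq2. Splicing factors had 0 of 53 called, with 2 higher and 2 lower at an unadjusted p under 0.05 and 0 by DESeq2.

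Endothelial markers mostly had positive fold changes without passing the test. Of 20 measured, 19 had a positive fold change, 9 were higher at an unadjusted p under 0.05, 0 passed in edgeR and 4 by DESeq2. Over all genes, 12783 of 26862 had a positive fold change and 4.36% were higher at that p. The median of the list was 0.19, or -0.08 under library size scaling (-0.32 for all genes). Aqp1, the water channel of capillaries, had 85.4, 71.8 and 67.5 CPM at 8 days, against 37.9, 60.6, 46.3 and 49.1 CPM at 4 days (0.63, SE 0.14, adjusted p = 0.0678). Adgrf5, an adhesion receptor of endothelial cells, was outside the list and passed, with 160.7, 147.5 and 129.6 CPM, against 93.0, 111.7, 99.8 and 94.6 CPM (0.55, SE 0.10, adjusted p = 0.0456).

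The genes higher at 8 days came from several families. Interferon-inducible GTPases, which attack the vacuoles of intracellular parasites, gave 3 of the 19. Tgtp2, at chr11:49057194-49064206, had 7.35, 9.94 and 11.6 CPM at 8 days, against 4.45, 4.16, 4.41 and 4.45 CPM at 4 days (1.14, SE 0.14, adjusted p = 0.0191). Gbp4 had 10.9, 19.9 and 19.9 CPM, against 7.52, 8.63, 7.92 and 9.29 CPM (1.02, SE 0.17, adjusted p = 0.0443), and Iigp1 had 26.0, 34.2 and 31.9 CPM, against 18.3, 19.1, 18.5 and 20.03 CPM (0.69, SE 0.10, adjusted p = 0.0219). In all 3 genes the 4-day hearts were close together and 8-day A was the lowest 8-day heart, and all 3 kept their call without 8-day A, with adjusted p of 0.000929, 0.000929 and 0.00446. Tgtp2 has a near-identical neighbor, Tgtp1 (1.13, adjusted p = 0.0678), and reads may have been split between them. Other guanylate-binding genes did not pass, such as Gbp9 (0.43, adjusted p = 0.109) and Gbp2 (0.23, adjusted p = 0.585). These genes were named after their values were seen, and none of the 3 is in the list of interferon response genes. Of the 37 genes of that list 0 passed in edgeR, and the median was -0.18. At an unadjusted p under 0.05, 2 were higher and 7 lower (4.36% and 7.17% of all genes). In that list Ifi27l2a went down, at 5.49, 5.29 and 4.18 CPM against 12.6, 6.50, 9.71 and 8.31 CPM (-0.92, SE 0.19, adjusted p = 0.0678), and DESeq2 called 1 higher and 1 lower.

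The promoter of Tgtp2 is shown because it holds both kinds of element known from interferon-inducible genes, TTCNNNGAA, the gamma-activated site, and GAAANNGAAA, the core of the interferon-stimulated response element, in capitals and chosen after the values were seen. The 150 bases before the RefSeq start site are chr11:49064213-49064362 on the minus strand (GRCm38.p6), where the motifs began 81 and 70 bases before it.
Tgtp2: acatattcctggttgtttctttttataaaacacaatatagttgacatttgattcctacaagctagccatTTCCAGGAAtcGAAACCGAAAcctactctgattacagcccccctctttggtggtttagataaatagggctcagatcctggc

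Over all 32851 promoters, 7.02% held TTCNNNGAA and 2.98% GAAANNGAAA within 250 bases, on either strand. Among the 13 promoters found for 11 of the 19 higher genes, that of Tgtp2 was the sole one with either motif. The promoter reference held no entry for Gbp4.

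Enzymes of small-molecule metabolism made up a further share of the higher genes. Fmo2, a flavin monooxygenase that oxidizes drugs and other foreign compounds, had 51.0, 48.7 and 36.9 CPM at 8 days, against 22.8, 25.4, 18.4 and 27.2 CPM at 4 days (0.96, SE 0.14, adjusted p = 0.0219). Sult1a1, a sulfotransferase of phenolic compounds, had 12.5, 11.9 and 12.6 CPM, against 7.26, 8.37, 7.30 and 6.77 CPM (0.73, SE 0.10, adjusted p = 0.0219), a small spread in both groups, and it kept its call without 8-day A (adjusted p = 0.0437). Inmt, a methyltransferase of indole amines, had 7.11, 9.86 and 8.49 CPM, against 2.05, 2.49, 4.50 and 4.32 CPM (1.35, SE 0.24, adjusted p = 0.0456). Xdh, the gene of xanthine oxidoreductase, which makes uric acid, had 106.1, 108.4 and 104.6 CPM, against 64.2, 78.6, 75.5 and 69.6 CPM (0.56, SE 0.09, adjusted p = 0.0324), and Bckdha, a subunit of the complex that burns branched-chain amino acids, had 76.4, 75.7 and 67.8 CPM, against 45.3, 52.4, 54.0 and 47.1 CPM (0.56, SE 0.09, adjusted p = 0.0378). In each of these 5 genes the groups were apart, and the 8-day hearts were near their saline level for Sult1a1 and Bckdha but above every saline heart for Fmo2 and Xdh.

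Lipid handling was represented by Insig1, which holds SREBP factors in the endoplasmic reticulum (0.60, SE 0.10, adjusted p = 0.0456), and Abca12, a lipid transporter (0.81, SE 0.13, adjusted p = 0.0409). Also higher were the focal adhesion and actin genes Lims2 (0.54) and Ablim3 (0.60), Ankrd33b (0.58), the adaptor Apba3 (0.44), the lincRNA Gm48422 (0.73) and the pseudogene Gm18853 (0.79), with adjusted p between 0.0306 and 0.0496. Reads of Gm18853 may belong to its parent gene.

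In most called genes the 8-day mean was closer to the saline mean than to the 4-day mean. For 44 of the 47 lower genes, the saline mean lay on the same side of the 4-day mean as the 8-day mean did, and for 43 the 8-day mean was closer to saline than to 4 days on the log2 scale. The 8-day mean lay within the range of the 4 saline hearts in 21 of the 47. The exceptions were Pdia6, Tuba1c and Colq, whose saline mean lay above both groups. Colq, which anchors acetylcholinesterase, had 0.640, 0.423 and 0.574 CPM at 8 days, against 1.43, 1.46, 1.096 and 1.67 CPM at 4 days (-1.33, SE 0.25, adjusted p = 0.0496), while saline hearts had 1.69 to 4.41 CPM. For 16 of the 19 higher genes, saline was again on the 8-day side. In Ankrd33b and Insig1 it was not, and their means were highest at 8 and 11 days. The 8-day mean lay beyond both the saline and the 4-day mean in 16 of the 47 lower and 14 of the 19 higher genes. Saline hearts took no part in the fit, but the genes were chosen for a large distance between the 8-day and 4-day hearts. That choice favors an 8-day mean closer to saline than to 4 days, and no share over all genes is given. These counts are therefore a description, and the comparisons of each time with saline would share the saline hearts.

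**Figure D5:**
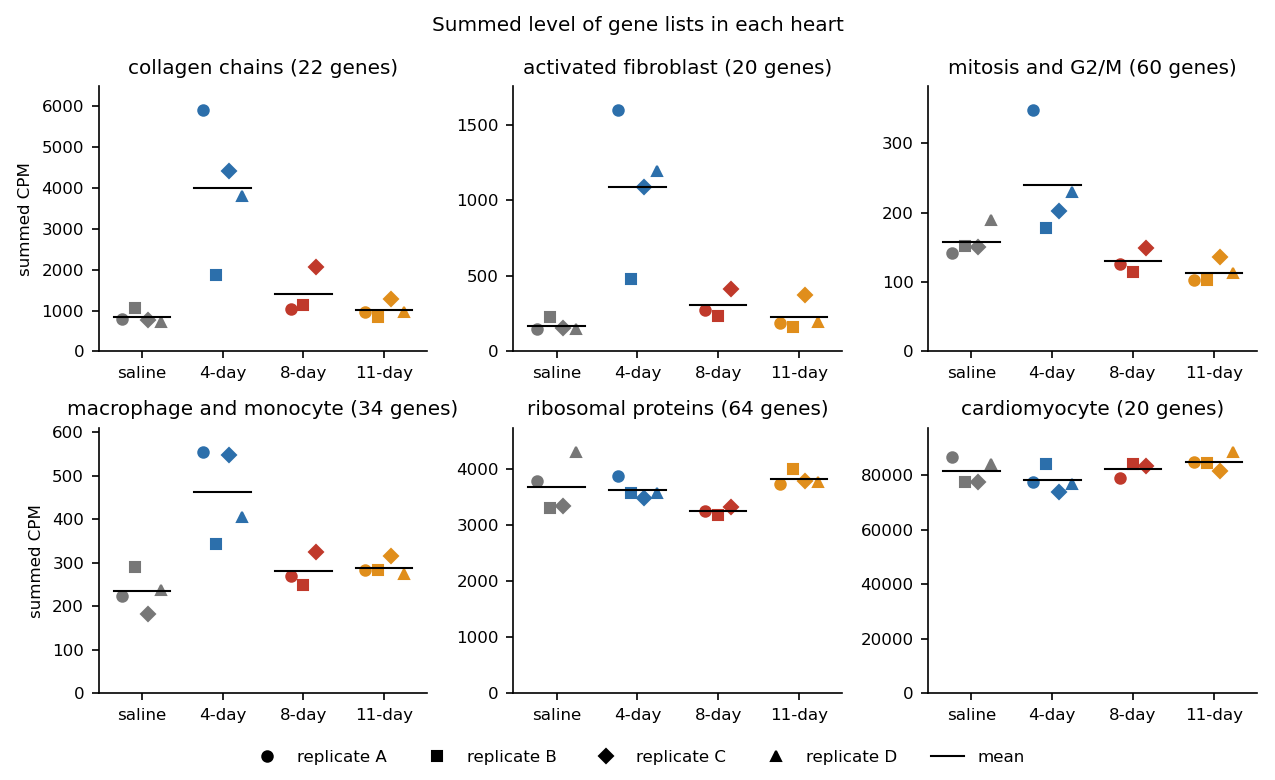
Summed CPM (vertical) of 6 gene lists in each heart, by group in the order of dosing, with 1 point for each heart, shaped by replicate letter, and a line at the mean. The collagen chains sum to 1049 to 2058 CPM at 8 days and 1862 to 5907 CPM at 4 days, with 4-day B the lowest 4-day heart and 8-day C the highest 8-day heart, while the cardiomyocyte markers stay between 74040 and 88520 CPM in all 15 hearts.

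Markers of these other cell types gave no call in edgeR. Smooth muscle and pericyte markers had 0 of 17 called, 3 higher at an unadjusted p under 0.05 (4.36% of all genes) and 0 by DESeq2. They summed to 796.2 to 909.8 CPM at 8 days and 765.7 to 842.7 CPM at 4 days. Lymphocyte markers, at 4.06 to 6.83 CPM in sum at 8 days and 3.65 to 7.72 CPM at 4 days, and neutrophil and mast cell markers, at 6.09 to 6.68 CPM and 5.76 to 7.44 CPM, were low in both groups, and DESeq2 called 0 of the 20 lymphocyte markers and 1 of the 12 neutrophil and mast cell markers, which was higher. Atrial markers summed to 73.3 to 235 CPM at 8 days and 131 to 389.2 CPM at 4 days, with 0 of 9 called by edgeR or DESeq2. A large part of that sum is Nppa, also a gene of the fetal and hypertrophic program, so the sum does not measure atrial content. The median log2 fold change of the list was 0.08. Blood genes varied within groups, with sums of 88.6 to 198.2 CPM at 8 days and 40.04 to 209.4 CPM at 4 days, and 0 of 10 were called by either tool. The part that tissue content played in the results above was not tested.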

How the data were processed

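RNA of 15 mouse hearts was sequenced as total RNA libraries, and 7 of them entered the comparison. Per the submitters' processing notes, reads were trimmed with cutadapt 4.1, aligned to GRCm38.p6 with HISAT2 2.2.1 and quantified with RSEM 1.3.3. The authors deposited the expected counts that RSEM gave for each gene, without normalization. The authors also deposited FPKM values and effective lengths, used for alternatives. The strand setting is not given in the sources used here. Gene names came from GENCODE M21, which held 55141 of 55401 identifiers.

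Expected counts were rounded, the 26862 genes whose counts over the 15 samples reached 10 in total were tested, and library sizes were scaled by TMM over all 15. The 3 8-day and 4 4-day hearts were compared by edgeR's two-sided quasi-likelihood F test (version 4.0.16, under R 4.3.3). An adjusted p (Benjamini-Hochberg) under 0.05 counted as a call. The standard error (SE) given is the log2 fold change divided by the square root of F. CPM are scaled by TMM. The pipeline was tested on simulated data. Groups of 3 and 4 hearts limit the precision, and an exact permutation test of a single gene could not go below p = 0.0571. Alternatives were other scalings and filters, all groups in one fit, DESeq2 1.42.0, limma 3.58.1 (voom with quality weights, and log2 FPKM with pseudocounts of 0.1 and 1), robust dispersions, effective lengths as offsets, a replicate block, other thresholds and each library left out.

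The members and the 45 gene lists were chosen with earlier results of these data known. Named genes were the 10 highest and 10 lowest fold changes among called genes whose groups did not overlap and averaged 5 CPM or more on the higher side, up to 4 genes per list by smallest p, and genes the paper names. Other called genes and those said to be so were named after their values were seen. Lists are described by counts and medians, with no set test. One called gene is not reported here.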

Additional observations from a re-analysis of the deposited data

Results flagged for a closer look

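Of the 66 genes past the threshold, 2 had a 4-day heart that lay far from the others of its group by Dixon's criterion, which chance alone meets in about 1 of 20 groups. Tgtp2 had 4.16 CPM in 4-day B, against 4.41 to 4.45 CPM in the other 4-day hearts, a gap that is small beside the 7.35 to 11.6 CPM of the 8-day hearts. Gm48422, a lincRNA, had 2.52 CPM in 4-day D, against 3.04 to 3.11 CPM in the other 4-day hearts and 4.75 to 4.99 CPM in the 8-day hearts. The 8-day group of 3 hearts was too small for this criterion.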

How the results depend on the processing

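The 66 genes past the threshold (19 higher, 47 lower) kept their direction in every alternative on counts, but their number did not hold. Counts of higher and lower genes follow, with their total. Without a filter on low counts they were 141 and 535 (676), with edgeR's filterByExpr 3 and 0 (3, with 1056 higher and 1569 lower at an unadjusted p under 0.05), with all groups in one fit 62 and 211 (273), with DESeq2 147 and 371 (518), with limma voom 8 and 4 (12), with robust dispersions 46 and 82 (128), and with effective lengths as offsets 5 and 10 (15). With library size only they were 22 and 513 (535), where the median of all genes was -0.32. Of the 66 genes, the fits without a filter and with DESeq2 called 66 each, all groups in one fit 57 and library size only 50. Robust dispersions called 43 of the 66, effective lengths 14, limma voom 11 and filterByExpr 3. Other size factors gave counts within 1.5 times of the main ones. On FPKM the counts were 0 and 3 (3) with a pseudocount of 0.1 and 0 and 2 (2) with 1. Of the 66 genes, 0 were among these FPKM calls, and the medians over all genes were -0.24 and -0.10. At an unadjusted p under 0.05 these fits had 152 and 159 higher and 3559 and 3474 lower genes, and there the fold change of Apba3 log2 8-day over 4-day reversed, to -0.09889 and -0.09042. At a threshold of 0.01 none passed (0), and at 0.1 they were 100 and 289 (389). The cause of these differences was not tested.

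Leaving out 1 heart at a time gave 0 to 124 higher and 0 to 572 lower genes (0 to 696 in total), as given per library in the report. Without both 4-day B and 8-day A they were 82 and 333 (415), and without both 4-day B and 8-day C, chosen after seeing the data, 159 and 679 (838), where 65 of the 66 remained. The replicate block, with the letter as a term, gave 72 and 326 (398). The labels do not state that hearts of the same letter are paired. Deviations of same-lettered hearts correlated at -0.101, 0.209 and 0.265 for A, B and C over 13368 genes. Differently lettered hearts were not set beside these values, so they cannot decide whether a letter marks a shared batch, which was not tested. Genes at a few counts per library, such as Spp1, Ccl8 and Has2 at 8 days, have fold changes limited by depth.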
